A study of Mus musculus with 12 samples.

Results

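The comparison described here sets activated CD8+ T cells kept in liquid media against naive CD8+ T cells, over all genes. It uses 6 of the 12 libraries of a bulk RNA sequencing series on mouse T cells, 3 of each group, chosen by their sample labels alone. Male wild-type mice gave all cells, taken from lymph nodes and spleen. The naive cells were lysed fresh on day 0 without activation. The other cells were stimulated for 2 days with antibody to CD3 bound to the plate and soluble CD28 reagent, then expanded for 1 day in recombinant mouse interleukin 2, then left for 24 h in media, and their RNA was taken on day 4. The remaining 6 libraries hold cells that spent those last 24 h in collagen gels and enter no main test; 1 alternative fit uses all 12. Activation, interleukin 2, culture, handling and the 4 days between both harvests changed together, so their shares cannot be told apart. The labels state n = 3 per group and do not say that each library is a separate culture or mouse, so the p-values measure the spread between these libraries.

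A naive CD8+ T cell is a small resting lymphocyte that circulates through lymphoid organs. Signals through the T cell receptor and CD28 make it grow, switch its metabolism, take up nutrients, divide many times and acquire the proteins with which a cytotoxic T cell kills. Interleukin 2 sustains this division through a receptor of high affinity and the transcription factor STAT5. The immediate early genes, such as Fos, are induced within minutes of stimulation and are then shut off.

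The naive libraries held 37555066, 38227536 and 42375778 counts and the media libraries 53138362, 42001486 and 45841558. Levels are given in CPM, the count of a gene relative to the library total after TMM scaling, and are shares of the RNA of a library, not amounts per cell. In bulk RNA a lower level can mean fewer cells that express a gene or less of its RNA per cell, and these cannot be told apart. The genes that define CD8 T cells were present in all 6 libraries: the 8 genes of that list summed to 4818 to 5753 CPM in naive cells and 4289 to 4711 CPM in media, and Cd8a stood at 926, 956 and 1071 CPM in the naive libraries against 639, 657 and 759.7 CPM in the media libraries. The first principal component of the 500 most variable genes held 96.5% of the variance and separated the groups, with naive libraries from -58.1 to -53.9 and media libraries from 54.9 to 56.1. The second held 2.00% and set naive library 1 (15.6) apart from naive libraries 2 (-6.59) and 3 (-9.61). Naive library 1 also held the most RNA of macrophage and red cell genes, given with the marker genes further on.

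A gene was called when its adjusted p in edgeR's quasi-likelihood test was under 0.05. Of 18610 genes tested, 11324 (60.8%) were called: 5889 (31.6%) were higher in media and 5435 (29.2%) lower. Calls with at least a 2-fold change numbered 2830 (15.2%) higher and 2210 (11.9%) lower, and those with at least an 8-fold change 759 (4.08%) higher and 398 (2.14%) lower. The ranges of the groups did not overlap in 12576 genes (67.6%), with the media libraries above the naive ones in 6525 (35.1%) and below them in 6051 (32.5%). The median log2 change of all genes was -0.00336, with quartiles at -0.51 and 0.57. The counts of each list below are to be read against these shares. Of the 365 genes named by the rule, 114 overlap a gene on the other strand in the GENCODE M21 annotation, and without a stated strand setting the reads of both cannot be told apart.

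**Figure D1:**
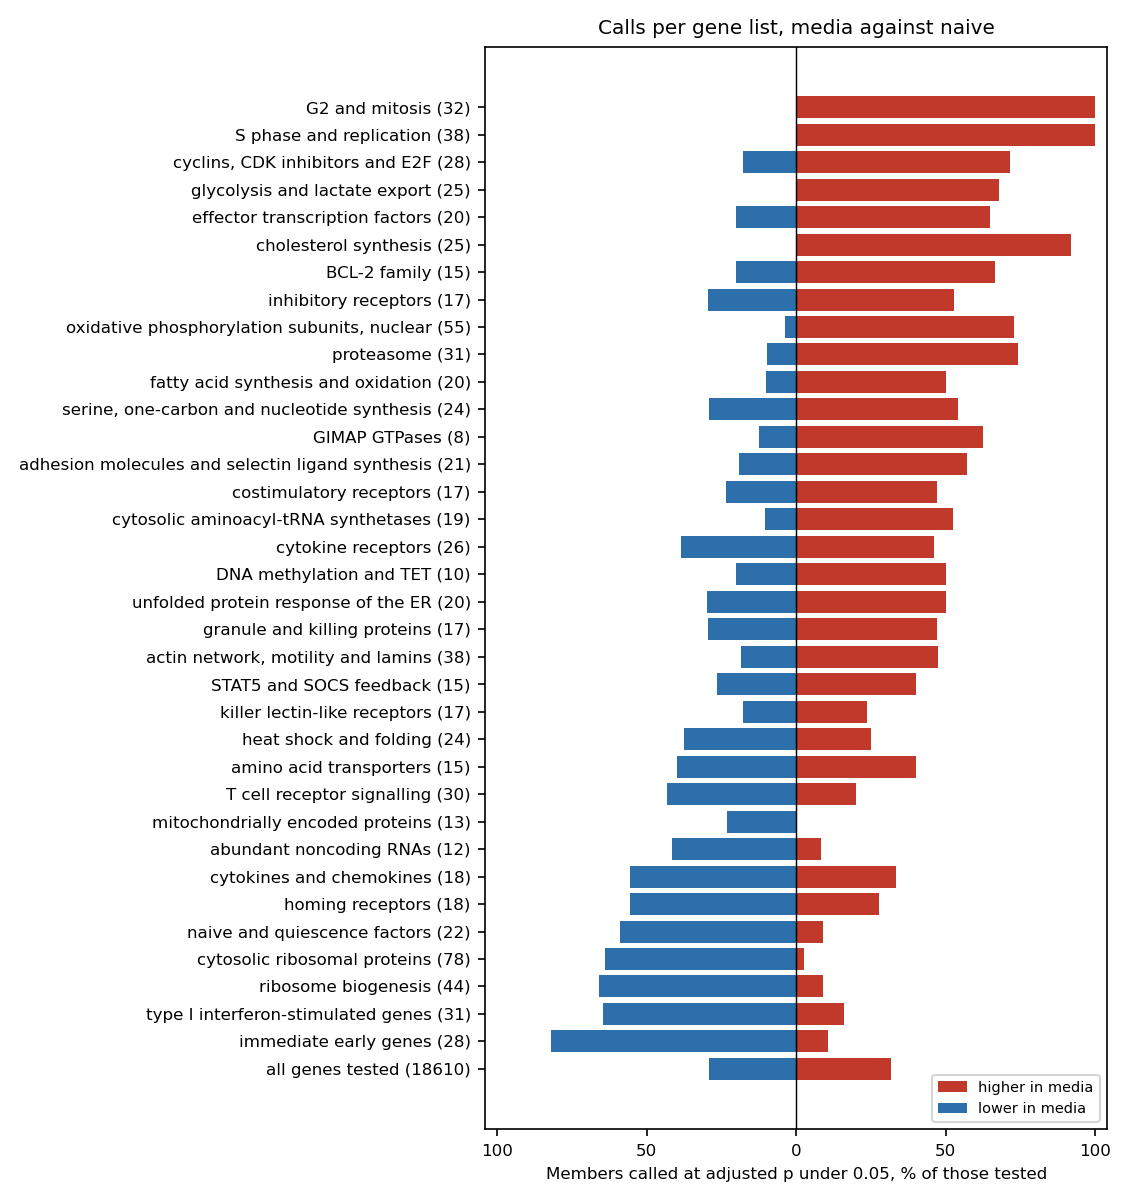
Share of the tested members of each gene list that were called higher (red, to the right) or lower (blue, to the left) in media, in percent, ordered by the list's median log2 change, with the number tested in brackets and all 18610 genes at the bottom. All members of the mitosis and replication lists were higher, 23 of 25 cholesterol synthesis genes were higher, and 23 of 28 immediate early genes were lower.

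Genes that were nearly silent in naive cells and abundant in media led the higher calls. Gucy2e, which encodes a guanylate cyclase known from the retina (GRCm38 chromosome 11, 69218117 to 69237036), stood at 0.254, 0.205 and 0.0934 CPM in the naive libraries and 74.7, 71.4 and 55.6 CPM in the media libraries, a log2 change of 8.51 (SE 0.232, adjusted p = 5.90e-09). Serpine2, a secreted inhibitor of serine proteases (chromosome 1, 79794197 to 79861180), rose from 0.219 ± 0.189 to 34.2 ± 5.39 CPM (mean ± SD, n = 3, as in all such values), and its log2 change was 7.29, or 8.22 without naive library 1, where its naive level was highest. Tnfrsf8, which encodes the TNF receptor family member CD30 (chromosome 4, 145267137 to 145315164), measured 36.0, 28.8 and 12.3 CPM in media against 0.356, 0.154 and 0.257 CPM in naive libraries (log2 6.63). No library of one group reached the range of the other for these 3 genes, although media library 3 held less than 1 in 2 of the Tnfrsf8 level of the other media libraries. The other genes among the 10 with the largest rise were the granzyme gene Gzmb and 6 genes of cell division and genome upkeep. Pimreg rose by a log2 change of 6.73, Ska1, part of the outer kinetochore, by 6.71, Pclaf, a partner of the replication clamp PCNA, by 6.45, Esco2, an acetyltransferase of cohesin, by 6.32, Nusap1, a spindle protein, by 6.32 and Neil3, a DNA glycosylase, by 6.28. Nusap1 overlaps Oip5 and Pclaf overlaps Trip4 on the opposite strand.

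All genes listed for G2 and mitosis rose: 32 of 32 were called higher, each by at least 2-fold, with a median log2 change of 5.72 and a range from 2.50 (Kif23) to 6.32 (Nusap1). Their summed level went from 205 to 245 CPM in naive libraries to between 8228 and 9400.4 CPM in media. Cdk1, the kinase that drives entry into mitosis (GRCm38 chromosome 10, 69335146 to 69352938), measured 3.13, 2.08 and 1.92 CPM in the naive libraries and 145, 142 and 148 CPM in the media libraries, 60.9 times as much (log2 5.93, SE 0.165, adjusted p = 6.65e-09). The media libraries lay within a few CPM of each other and far above the naive ones. Its partner cyclin gene Ccnb1 rose from 1.53 ± 0.328 to 92.5 ± 3.17 CPM (log2 5.91), and the mitotic kinase gene Plk1 from 3.92 ± 0.296 to 133 ± 6.31 CPM (log2 5.09). Bub1, a kinase of the spindle checkpoint, rose by 6.16 on the log2 scale, and the spindle motor gene Kif11 by 6.13. Cenpa, the histone variant that marks centromeres, already stood at 27.8 ± 3.87 CPM in naive cells and rose to 236 ± 14.9 CPM (log2 3.08).

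The S phase and replication list moved as completely but by less: 38 of 38 genes were called higher, 37 of them by at least 2-fold, with a median log2 change of 2.45. Rrm2, the regulated subunit of the enzyme that makes deoxynucleotides, was at 8.79, 8.14 and 7.55 CPM in naive and 452, 461 and 490.1 CPM in media libraries (log2 5.84, SE 0.103, adjusted p = 1.27e-09), with no overlap of the groups. Mcm10 (log2 5.71), the licensing factor gene Cdc6 (log2 5.06) and the thymidine kinase gene Tk1 (log2 4.53) rose strongly as well. Subunits that resting cells also hold rose less: the helicase gene Mcm2 went from 74.5 ± 4.19 to 179 ± 18.8 CPM (log2 1.26), and Pcna from 121 ± 3.87 to 308 ± 19.6 CPM (log2 1.34). The smallest changes in the list were those of Pola2 (0.91) and Gins4 (1.02).

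Among cyclins, CDK inhibitors and E2F factors 20 of 28 tested rose and 5 fell, with a median log2 change of 1.39. Ccna2, the cyclin of S phase and G2, rose from 4.53 ± 0.832 to 339 ± 15.3 CPM (log2 6.22), and Ccne2 rose by 4.66. The E2F genes E2f8 (5.82), E2f7 (5.66), E2f2 (4.44) and E2f1 (3.10) all rose, while E2f4 (0.17, adjusted p = 0.102) and the pocket protein gene Rbl2 (0.11, adjusted p = 0.176) were not called. Ccnd2, a D-type cyclin of G1, went the other way: it measured 798, 801 and 762 CPM in naive and 414, 377 and 327 CPM in media libraries, a fall of 1.08 on the log2 scale with no overlap. Cdkn1b, the inhibitor p27 of resting T cells, fell by only 0.24 (adjusted p = 0.0228) and was not called without naive library 1, naive library 2 or media library 2 (adjusted p = 0.0638, 0.0609 and 0.107).

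**Figure D2:**
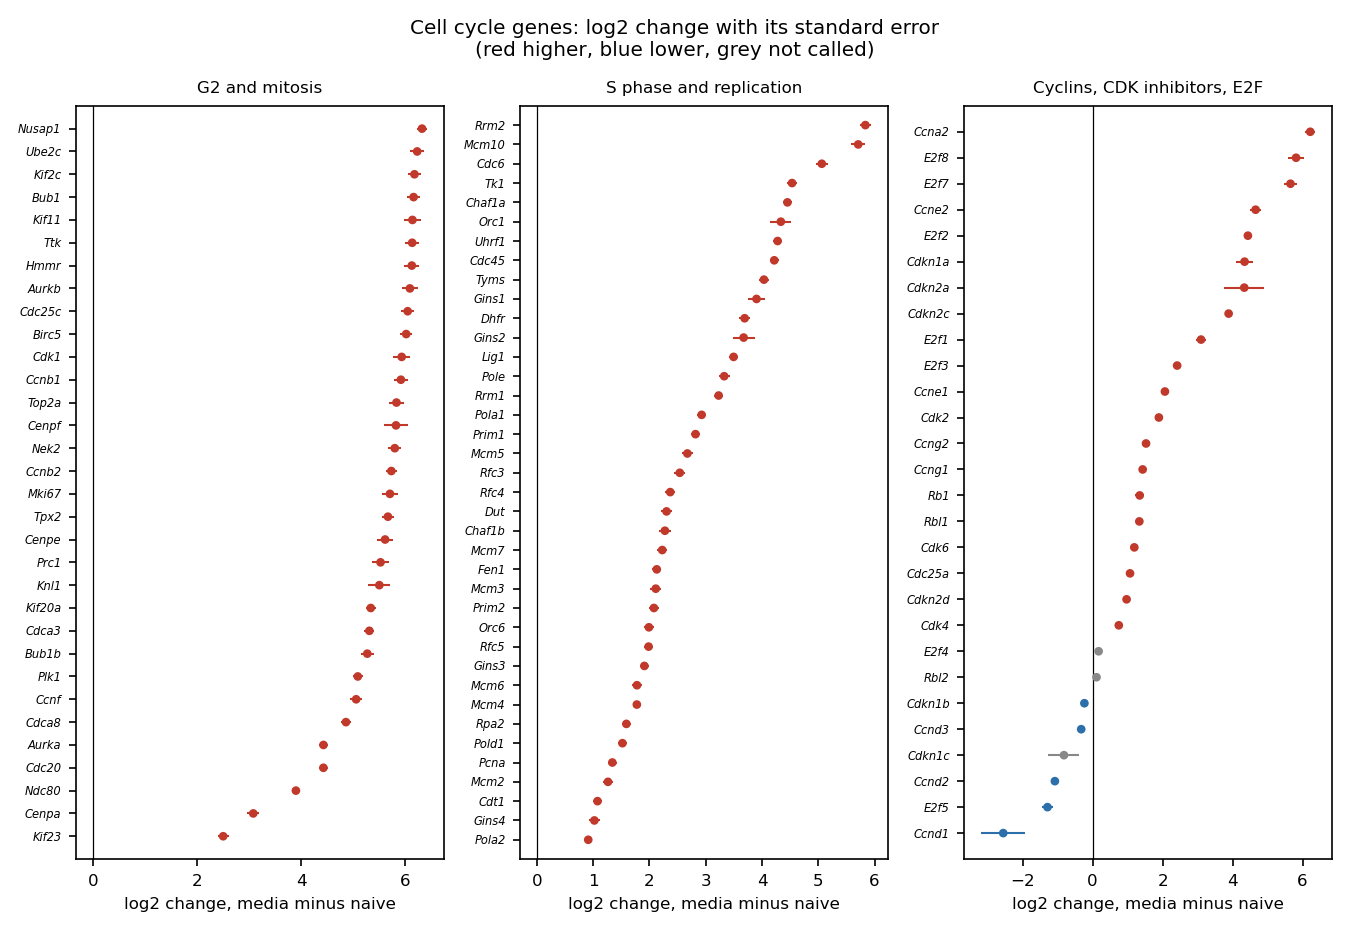
Log2 change from naive to media (x axis) of each tested gene in the 3 cell cycle lists, with its standard error as a horizontal line and red, blue and grey for higher, lower and not called. All mitosis and replication genes lie right of 0, mitosis genes between 2.50 and 6.32, and 5 cyclin, inhibitor or E2F genes lie left of 0 as calls.

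The promoters of these lists were read because their members moved together. RefSeq gives a promoter of 300 bases (250 before and 50 after the start, GRCm38.p6) for 10631 genes tested. The 6 letters TTTGAA, the core of the cell cycle homology region (CHR) known from mitotic promoters, occurred on either strand in 22 of 28 promoters of the G2 and mitosis list (78.6%), in 4 of 31 of the S phase list (12.9%) and in 12.85% of all promoters. They were found in 125 of 477 promoters (26.2%) of genes called higher by at least 8-fold and in 31 of 239 (13.0%) of those called lower by as much. The E2F letters TTTGGCGC or TTTCCCGC occurred in 10 of 31 S phase promoters (32.3%), in 0 of 28 mitotic ones and in 3.13% of all. The first 3 members of each list that held the letters are printed to show where these lie, as 100 bases that end at most 30 bases after the annotated start, 5′ to 3′ on the strand of the gene, with the matched letters or their reverse complement in capitals. The motifs were searched one by one. A match describes the sequence and is not evidence of binding.
Cdk1, CHR letters, chr10:69352883-69352982, minus strand: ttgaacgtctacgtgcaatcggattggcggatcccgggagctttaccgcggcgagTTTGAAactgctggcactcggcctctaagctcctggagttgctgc
Ccnb2, CHR letters, chr9:70421525-70421624, minus strand: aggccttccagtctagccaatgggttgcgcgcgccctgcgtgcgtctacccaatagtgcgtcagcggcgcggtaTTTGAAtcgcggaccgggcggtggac
Cdc20, CHR letters, chr4:118437314-118437413, minus strand: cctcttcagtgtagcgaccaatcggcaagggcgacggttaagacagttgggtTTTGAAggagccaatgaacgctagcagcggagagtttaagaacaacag
Mcm3, E2F letters, chr1:20820283-20820382, minus strand: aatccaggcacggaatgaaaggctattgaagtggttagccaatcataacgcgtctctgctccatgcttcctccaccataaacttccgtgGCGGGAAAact
Mcm5, E2F letters, chr8:75109313-75109412, plus strand: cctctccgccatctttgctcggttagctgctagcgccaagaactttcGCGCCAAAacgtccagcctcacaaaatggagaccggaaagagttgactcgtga
Mcm6, E2F letters, chr1:128359700-128359799, minus strand: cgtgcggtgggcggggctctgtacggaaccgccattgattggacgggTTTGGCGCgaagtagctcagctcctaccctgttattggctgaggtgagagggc

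The receptors for interleukin 2 and interleukin 12 rose and those for interleukin 6 fell. Il2ra, the α chain that gives the interleukin 2 receptor its high affinity (GRCm38 chromosome 2, 11642807 to 11693193), stood at 7.52, 7.37 and 4.74 CPM in naive and 299, 294 and 272 CPM in media libraries, 44.0 times as much (log2 5.46, SE 0.178, adjusted p = 1.94e-08). All media values were close together and none came near a naive value. The shared β chain gene Il2rb rose from 388 ± 19.2 to 819 ± 101 CPM (log2 1.08). Il12rb2, the signalling chain of the interleukin 12 receptor, rose from 5.21, 3.03 and 3.22 to 184, 169.6 and 135 CPM (log2 5.41), and Ifngr1, a chain of the interferon γ receptor, by 1.92. Il6ra, the interleukin 6 receptor, fell from 230.0, 225 and 243 to 18.0, 22.8 and 36.7 CPM (log2 -3.18), and its signalling partner Il6st by 2.15. Il7r, the receptor for the survival factor of resting T cells, fell little, from 476 ± 36.0 to 379.6 ± 15.1 CPM (log2 -0.33, adjusted p = 0.0102). In the whole list 12 of 26 tested cytokine receptor genes rose and 10 fell, with a median log2 change of 0.22.

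Among genes of STAT5 and SOCS feedback 6 of 15 rose and 4 fell, or 2 without media library 2. Socs2 (log2 3.98), Cish (log2 2.08) and Pim1 (log2 1.35), known targets of STAT5, rose, as did Lif, a cytokine of the interleukin 6 family (log2 4.20). Cish measured 37.5, 56.8 and 69.1 CPM in the media libraries, highest in library 3, against 13.0, 12.2 and 13.1 CPM in naive ones. Socs3, the brake on interleukin 6 signalling, fell from 107 ± 10.2 to 35.2 ± 5.87 CPM (log2 -1.62). Stat5b (0.02, adjusted p = 0.839) and Jak3 (-0.02, adjusted p = 0.843) were not called.

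**Figure D3:**
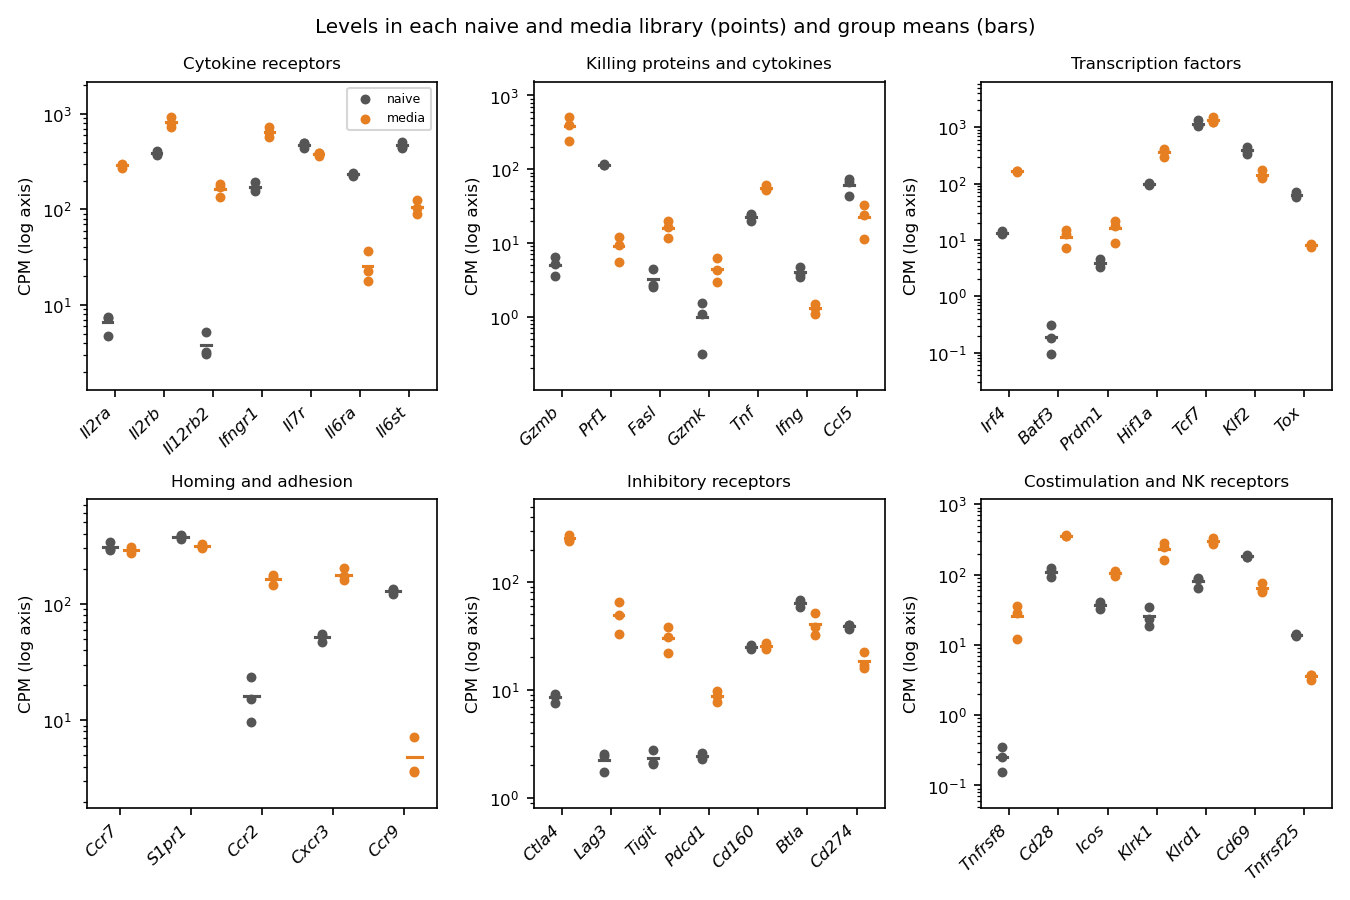
Levels in CPM on a log axis of genes from the receptor, killing, transcription factor and homing lists, with 1 point per library (grey naive, orange media) and a bar at the group mean. Il2ra, Il12rb2, Gzmb, Batf3, Ctla4 and Tnfrsf8 lie far apart between groups, whereas the points of Tcf7, Ccr7 and Cd160 lie close together.

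The transcription factors of effector cells mostly rose: 13 of 20 were called higher and 4 lower, with a median log2 change of 0.84. Irf4, a factor whose level follows the strength of T cell receptor signals, measured 13.2, 12.9 and 14.2 CPM in naive and 165, 168 and 163 CPM in media libraries (log2 3.61, SE 0.0742, adjusted p = 1.40e-09). Batf3, an AP-1 family factor, was at 0.305, 0.180 and 0.0934 CPM in naive libraries and 14.8, 12.7 and 7.08 CPM in media, with media library 3 lowest (log2 5.90). Prdm1, which encodes Blimp-1, rose by 2.04 and Bhlhe40 by 2.69. Tbx21, which encodes T-bet, rose less, from 27.2 ± 4.91 to 52.2 ± 8.15 CPM (log2 0.94), and Id2 by 0.65. Tox, a factor known from exhausted T cells, fell from 58.3, 61.9 and 71.8 to 7.62, 8.42 and 8.30 CPM (log2 -2.98). Eomes fell slightly (log2 -0.28, adjusted p = 0.00912, and 0.0517 without media library 2). Myc, a driver of growth after activation, was not called on day 4, at 145 ± 13.7 CPM in naive and 167 ± 23.8 CPM in media cells (adjusted p = 0.162, and 0.0199 without media library 3).

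Naive cells are held at rest by a set of transcription factors and inhibitors, and 13 of 22 such genes fell while 2 rose (1 rose without any 1 of the 3 naive libraries, media library 2 or media library 3). Tsc22d3, which encodes the glucocorticoid-induced protein GILZ, fell most, from 323, 309 and 456 to 31.4, 26.5 and 28.3 CPM (log2 -3.66, SE 0.158, adjusted p = 1.25e-07). The quiescence factor genes Klf2 (-1.42), Klf3 (-1.62) and Btg1 (-1.33) fell by more than 2-fold, each with all media libraries below all naive ones. Lef1 fell from 419 ± 38.5 to 318 ± 27.3 CPM (log2 -0.40). Its relative Tcf7, the TCF-1 gene that marks naive and memory cells, was not called and its groups overlapped, at 1089, 1075 and 1324 CPM in naive and 1252, 1240.2 and 1521 CPM in media libraries (log2 0.20, adjusted p = 0.169). Myb rose from 48.5 ± 10.5 to 164 ± 7.45 CPM (log2 1.75).

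Granzyme B and perforin, the pair of proteins with which a cytotoxic T cell kills, changed in opposite directions. Gzmb (GRCm38 chromosome 14, 56258838 to 56262260) stood at 6.35, 3.59 and 5.16 CPM in naive and 509, 397 and 241 CPM in media libraries, 75.7 times as much on average (log2 6.24, SE 0.369, adjusted p = 7.52e-06). Media library 3 held less than 1 in 2 of the Gzmb of media library 1, and all 3 media libraries lay far above the naive ones. Prf1, the perforin gene, was at 115, 116 and 116 CPM in naive and 11.9, 9.51 and 5.45 CPM in media libraries, a fall to 1 part in 12.9 (log2 -3.69, adjusted p = 6.32e-06). Fasl, the death ligand, rose from 3.24 ± 1.05 to 16.1 ± 4.14 CPM (log2 2.31), and the granzyme inhibitor gene Serpinb6b from 21.2 ± 2.15 to 105 ± 36.1 CPM (log2 2.31). Gzma was not called and spread widely over the media libraries, at 36.6, 23.2 and 6.91 CPM (adjusted p = 0.839). The granule list as a whole had 8 genes higher and 5 lower of 17 tested. Its median log2 change of 0.17 had no stable sign, since it was -0.05 with limma-voom and -0.06 without media library 1.

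Cytokine and chemokine genes fell more often than they rose, with 10 of 18 tested lower and 6 higher, but the lower calls numbered 6 without naive library 1 or without naive library 3. Ifng, the interferon γ gene, fell from 4.75, 3.49 and 3.81 to 1.32, 1.09 and 1.48 CPM (log2 -1.63, adjusted p = 0.000121). Tnf rose, from 19.7, 23.6 and 24.8 to 52.8, 54.2 and 61.4 CPM (log2 1.30), and neither gene overlapped between groups. Tnfsf11, which encodes RANK ligand, rose by 2.15 and Il2 by 0.94 to 1.61 ± 0.272 CPM. Ccl5, a chemokine of effector and memory cells, measured 74.0, 42.9 and 66.9 CPM in naive and 33.0, 24.3 and 11.1 CPM in media libraries (log2 -1.42, adjusted p = 0.0367), and was not called without naive library 1 (adjusted p = 0.119) or naive library 3 (0.0730). Xcl1, a chemokine for dendritic cells, was likewise lower (log2 -0.49, adjusted p = 0.0302) and not called without any 1 of naive library 1, naive library 3, media library 1 or media library 2 (adjusted p from 0.0548 to 0.119).

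Of 18 homing receptor genes 5 rose and 10 fell, with a median log2 change of -0.35. Ccr2, a receptor for chemokines of inflamed tissue, was at 23.5, 15.1 and 9.69 CPM in naive and 178, 170.2 and 146 CPM in media libraries (log2 3.35, SE 0.314, adjusted p = 9.20e-05), and Cxcr3, a receptor of effector cells, rose from 51.4 ± 3.90 to 178 ± 21.3 CPM (log2 1.79). Ccr9, the receptor that guides cells to the small intestine, fell from 131, 134 and 120.5 to 3.68, 3.57 and 7.21 CPM (log2 -4.74). The lymph node receptor gene Ccr7, at 310.4 ± 26.5 CPM in naive and 291 ± 18.1 CPM in media cells, was not called (adjusted p = 0.367). S1pr1, the receptor for exit from lymph nodes, fell by 0.27 (adjusted p = 0.0149, and 0.0798 without media library 2).

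Of 21 adhesion and selectin ligand genes 12 rose and 4 fell, with a median log2 change of 0.33. Ly6a, which encodes the surface protein Sca-1, rose from 17.5, 16.8 and 13.7 to 236, 223 and 233 CPM (log2 3.84). The matrix receptor genes Itgb3 (log2 2.11), Itgb1 (log2 1.29) and Cd44 (log2 1.03) rose, and Fut7, an enzyme that completes selectin ligands, from 1.83 ± 0.149 to 9.90 ± 1.09 CPM (log2 2.43). Itgal, the α chain of LFA-1, fell by 0.30. Itgae, which encodes CD103, overlapped between groups at 222, 261 and 273 CPM in naive and 171, 202 and 321 CPM in media libraries (adjusted p = 0.598), and was called lower in the fit without media library 3 (log2 -0.43, adjusted p = 0.0104).

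Inhibitory receptors rose more often than they fell: 9 of 17 tested were higher and 5 lower, with a median log2 change of 0.57. By at least 2-fold, 7 were higher and 2 lower, and the lowest log2 change was -1.09. Ctla4, the receptor that competes with CD28, was at 9.22, 7.49 and 8.76 CPM in naive and 273, 246 and 242 CPM in media libraries (log2 4.90, SE 0.111, adjusted p = 1.96e-09). Lag3 rose from 2.22 ± 0.437 to 49.3 ± 16.3 CPM (log2 4.47), Tigit by 3.71, Havcr2, which encodes TIM-3, by 2.69, and Pdcd1, the PD-1 gene, from 2.42 ± 0.157 to 8.73 ± 0.948 CPM (log2 1.84). For Lag3, Tigit and Havcr2 media library 3 was the lowest of its group. Cd160 (0.03) and Cd5 (-0.14, adjusted p = 0.132) were not called.

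Costimulatory receptor genes gave 8 higher and 4 lower of 17 tested. Cd28 rose from 123, 114 and 91.6 to 367, 358 and 356 CPM (log2 1.71), Icos by 1.50 and Tnfrsf9, which encodes 4-1BB, by 1.74. Cd27 (0.13) and Cd226 (0.08) were not called. Tnfrsf25, which encodes DR3, fell by 1.96, and Cd69, an early activation marker, from 177, 178 and 193 to 56.3, 61.0 and 75.3 CPM (log2 -1.51). Among killer lectin-like receptors 4 of 17 rose and 3 fell. Klrk1, which encodes the activating receptor NKG2D, rose from 35.0, 23.2 and 18.3 to 279.9, 247 and 162 CPM (log2 3.17), Klrd1 by 1.89 and Klrc1 by 1.60, while Klrg1, a marker of terminal effectors, stood at 1.59 ± 0.504 CPM in naive and 0.175 ± 0.0493 CPM in media cells (log2 -3.15). The largest change was in Klrb1c, also listed as an NK marker, from 10.5, 5.21 and 5.98 to 0.479, 0.333 and 0.174 CPM (log2 -4.44). Klra7 (-0.01) and Klre1 (-0.06) were not called.

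The T cell receptor pathway shifted little. Of 30 genes 6 rose and 13 fell, 2 in each direction by at least 2-fold, and the median log2 change was -0.19. Cd3e fell from 350.1, 313 and 465 to 189.6, 190.2 and 204 CPM (log2 -0.95), and the kinase gene Lck by 0.36. Pag1, an adaptor that restrains Lck, fell by 1.71 and the kinase gene Txk by 1.34, while Cblb, a ubiquitin ligase that limits activation, rose by 1.15 and Themis by 1.11. Cd247 (0.06), Cd3d (-0.15), Cd8b1 (-0.18) and Ptprc (0.08) were not called. Among the GIMAP GTPases, which act in lymphocyte survival, 5 of 8 rose and 1 fell (2 fell without naive library 2 or media library 1). Gimap7 went from 38.6 ± 2.75 to 144 ± 29.4 CPM (log2 1.90) and Gimap4 from 429.6 ± 18.5 to 979.8 ± 27.8 CPM (log2 1.19).

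Immediate early genes were high in the freshly lysed naive cells and low in media. Of 28 such genes 23 were lower and 3 higher, 18 lower by at least 2-fold, with a median log2 change of -1.54. Fos (GRCm38 chromosome 12, 85473890 to 85477273) stood at 204, 328 and 431 CPM in naive and 1.07, 1.21 and 0.697 CPM in media libraries (log2 -8.33, SE 0.363, adjusted p = 6.61e-07). Fosb (-6.05), Klf4 (-5.18) and Jun (-4.12) fell too, as did Ppp1r15a, a stress phosphatase subunit (-3.79), and Nr4a1 (-2.46). Naive library 1 was the lowest naive library for Fos, Fosb, Jun and Klf4, and still lay at least 9 times above the highest media library for each. Egr1 overlapped between groups, at 47.7, 59.2 and 68.9 CPM in naive and 49.7, 45.6 and 33.3 CPM in media libraries, and its call (log2 -0.45, adjusted p = 0.0378) was lost without naive library 2, naive library 3, media library 2 or media library 3 (adjusted p from 0.0698 to 0.127). Dusp6 was not called (0.11).

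Inducible heat shock genes showed the largest differences among abundant transcripts. Hspa1a, a stress-inducible HSP70 gene (GRCm38 chromosome 17, 34969190 to 34972156), was at 539, 1174 and 1245 CPM in naive and 0.402, 0.499 and 0.479 CPM in media libraries (log2 -11.06, SE 0.449, adjusted p = 4.02e-07). Hspa1b (chromosome 17, 34956436 to 34959238) was at 672, 1434 and 1524 CPM in naive and 0.881, 0.666 and 0.763 CPM in media libraries (log2 -10.60). Hspa1a and Hspa1b are near-identical copies, so the split of reads between them is uncertain, and naive library 1 held less than 1 in 2 of the level of the other naive libraries for each. Hspa1l beside them had 12.05, 28.5 and 32.1 CPM in naive libraries and 0 counts in all media libraries, which makes it at least 1177-fold lower against a floor of 3 counts over the group. Hspa1a overlaps Gm20481 and Hspa1l overlaps Gm10501 on the opposite strand. Their co-chaperone genes fell less, Dnajb1 from 342 ± 76.8 to 71.9 ± 5.48 CPM (log2 -2.25), Hsph1 by 2.09 and Dnaja1 by 1.08.

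Over all 24 heat shock and folding genes 6 rose and 9 fell, a share of calls near that of all genes, with a median log2 change of -0.01. Hsp90ab1 (0.13), Cct7 (0.00, adjusted p = 0.998) and Trap1 (adjusted p = 0.98) were not called. Hspa8, the constitutive HSP70 gene, rose by 0.33 (adjusted p = 0.0218), and was not called without naive library 1 (adjusted p = 0.122) or naive library 2 (0.0707). In the unfolded protein response of the endoplasmic reticulum 10 of 20 genes rose and 6 fell. Xbp1 (0.91), Atf6 (1.77) and Sdf2l1 (1.83) rose, and Hspa5, which encodes BiP (-0.57), Atf4 (-0.95), Ddit3 (-0.96) and Dnajb9 (-1.58) fell.

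**Figure D4:**
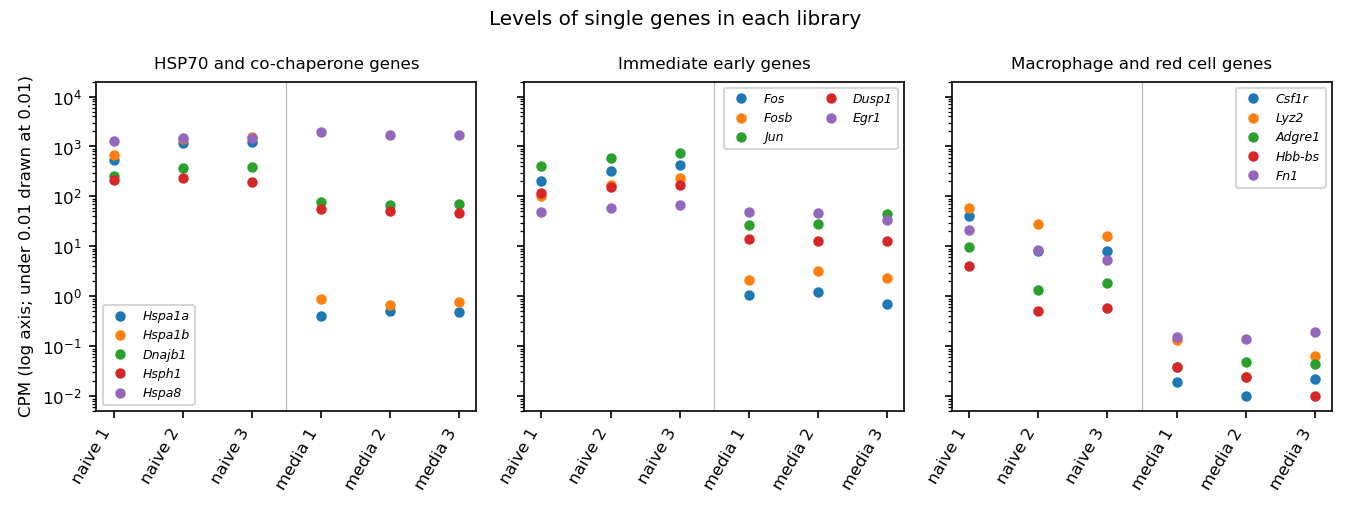
Levels in CPM (log axis, values under 0.01 drawn at 0.01) of single genes in each of the 6 libraries, with 1 point per gene and library and a thin vertical line between the groups. Every naive point of Hspa1a, Hspa1b, Fos and Fosb lies more than 10 times above every media point, Hspa8 lies near the same level in all libraries, and Csf1r, Lyz2, Fn1 and Hbb-bs are highest in naive library 1.

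Glycolysis genes rose and none fell: 17 of 25 were called higher, 11 by at least 2-fold, with a median log2 change of 0.84. Slc16a3, the exporter of lactate, was at 2.03, 2.26 and 1.73 CPM in naive and 56.5, 44.9 and 31.1 CPM in media libraries (log2 4.46, SE 0.239, adjusted p = 5.20e-07). Hk2, the inducible hexokinase gene, rose from 7.90 ± 0.929 to 43.2 ± 12.3 CPM (log2 2.45), Tpi1 by 2.60, Aldoc by 3.47 and Ldha, the enzyme that makes lactate, from 321 ± 10.3 to 786 ± 179.8 CPM (log2 1.29). Bnip3, a target of the hypoxia factor HIF-1, rose by 3.17. Media library 3 was the lowest media library and media library 1 the highest for Slc16a3, Hk2, Tpi1, Aldoc, Ldha and Bnip3. The glucose transporter gene Slc2a1 (0.23, adjusted p = 0.105), Hk1 (0.05) and Pdk1 (0.01) were not called, and Slc2a1 was called higher without media library 3 (log2 0.34, adjusted p = 0.0215) or naive library 3 (log2 0.31, adjusted p = 0.0477). With upper quartile factors 2 genes of the list were lower.

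Respiration genes of the nucleus rose by small amounts, and no protein-coding gene listed from the mitochondrial genome rose. Of 55 nuclear genes for oxidative phosphorylation 40 rose and 2 fell, but only 1 changed by at least 2-fold, and the median log2 change was 0.46. Sdhd, an anchor subunit of complex II, rose from 37.5 ± 2.00 to 92.6 ± 14.9 CPM (log2 1.30), Atp5j by 0.93 and Cox7a2 by 0.87, while Atp5g1 fell by 0.91. Ndufs3 (0.02) and Ndufa2 (-0.13) were not called. Of 13 proteins encoded in the mitochondrion 0 rose and 3 fell (median log2 -0.24), or 1 without any 1 of naive libraries 1 and 2 and media libraries 1 and 2 and 5 without naive library 3 or media library 3. The gene mt-Nd2, a complex I subunit, fell from 943 ± 144 to 621 ± 79.4 CPM (log2 -0.61), and mt-Nd1 (-0.04) and mt-Co1 (-0.16) were not called.

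Genes of the cholesterol synthesis list rose almost without exception, 23 of 25 higher and 0 lower, 10 by at least 2-fold, with a median log2 change of 0.79. Sqle, which makes squalene epoxide, was at 7.80, 7.42 and 8.15 CPM in naive and 59.1, 45.3 and 40.1 CPM in media libraries (log2 2.63, SE 0.148, adjusted p = 7.20e-07). Cyp51 (2.21), Idi1 (1.93) and the early pathway enzyme gene Hmgcs1 (1.27) rose too, with no library of one group inside the range of the other. Dhcr7 was not called (-0.14), but was called lower with upper quartile factors and without media library 1 (adjusted p = 0.0416 and 0.0451). In fatty acid metabolism 10 of 20 genes rose and 2 fell (1 fell without media library 2 and 0 without media library 3). The desaturase genes led, Fads2 with a log2 change of 4.69, Scd1 with 4.10, Scd2 with 2.04 and Fads1 with 1.95. Scd1 spread from 37.7, 21.8 and 10.3 CPM over the media libraries, and Fads2 had a log2 change of 5.45 without naive library 1. Fasn, the fatty acid synthase, fell slightly (log2 -0.25, adjusted p = 0.0168), and not beyond the threshold without media library 3 (adjusted p = 0.0578). Acly (0.967), Acaca (0.19) and Srebf1 (0.893) were not called, with the adjusted p in brackets.

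**Figure D5:**
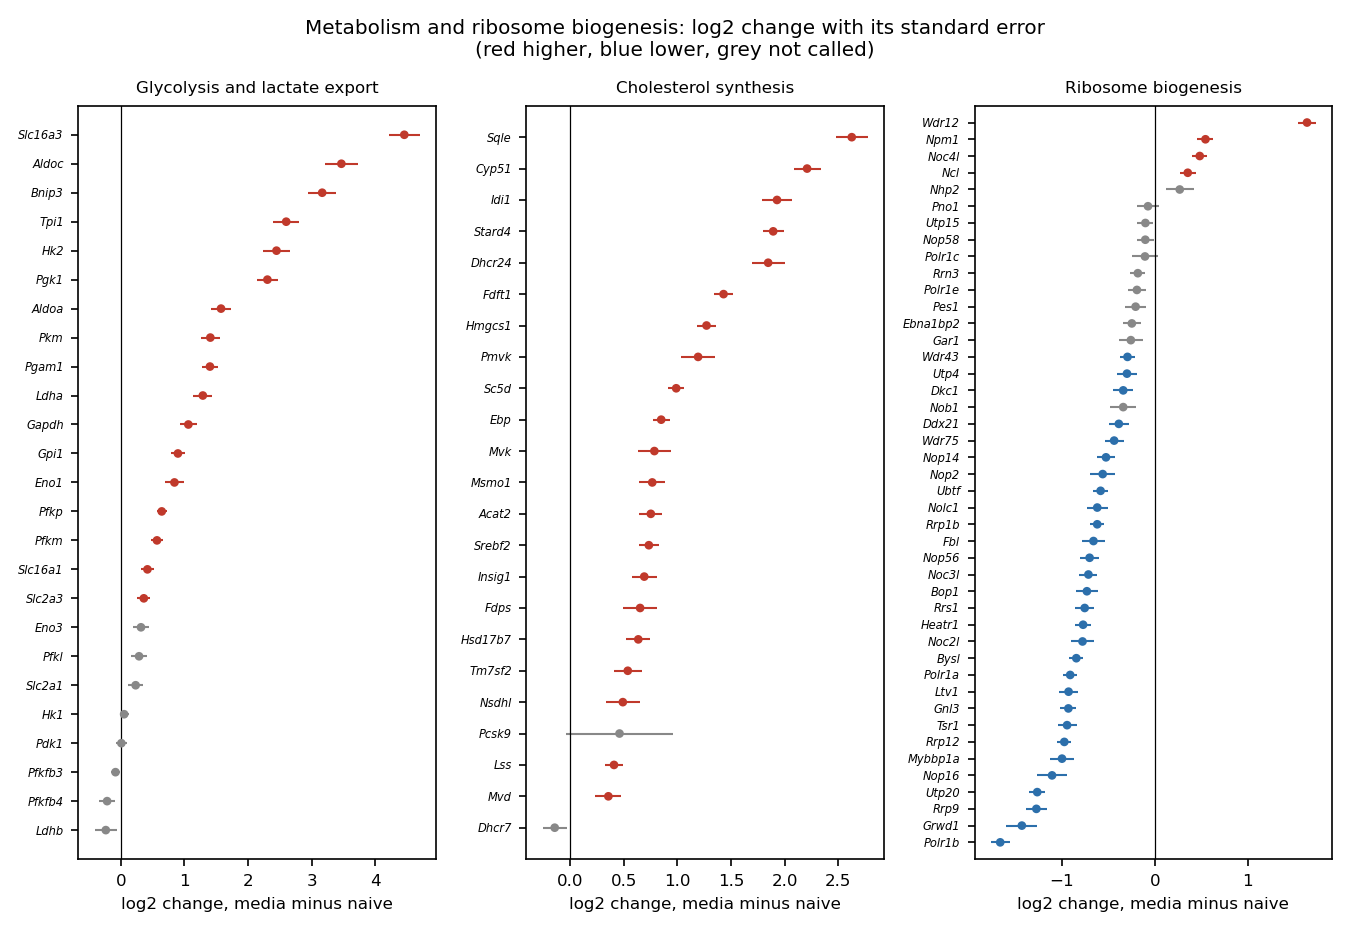
Log2 change from naive to media (x axis) of tested genes for glycolysis and lactate export, cholesterol synthesis and ribosome biogenesis, with its standard error as a line and red, blue and grey for higher, lower and not called. Sterol and glycolysis genes lie mostly right of 0 and ribosome biogenesis genes mostly left of it. Wdr12 (1.64), at the top, is the largest of 4 ribosome biogenesis genes called higher.

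Serine, one-carbon and nucleotide synthesis gave 13 higher and 7 lower of 24 (4 lower without naive library 2, media library 2 or media library 3). Psat1 and Phgdh, enzymes of serine synthesis, rose by 2.04 and 1.15, the mitochondrial folate enzyme gene Mthfd2 from 27.1 ± 3.38 to 69.8 ± 1.69 CPM (log2 1.36), and the purine enzyme gene Paics by 1.47. Shmt2 fell by 0.34. Mthfd1l (-0.01) and Nme1 (0.02) were not called.

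Genes that build ribosomes fell more often than they rose. Of 44 ribosome biogenesis genes 29 fell and 4 rose, with a median log2 change of -0.57. Polr1b, a core subunit of RNA polymerase I, was at 49.5, 50.1 and 49.99 CPM in naive and 17.0, 16.8 and 13.4 CPM in media libraries (log2 -1.67, SE 0.101, adjusted p = 1.21e-06). Grwd1 (-1.43), Rrp9 (-1.28) and Utp20 (-1.27) fell by more than 2-fold, and Fbl, the methyltransferase fibrillarin of the nucleolus, from 105 ± 6.60 to 66.8 ± 11.9 CPM (log2 -0.66). Against this trend Wdr12 rose by 1.64, and the abundant nucleolar genes Npm1 (0.55) and Ncl (0.36) rose slightly. The letters CACGTG, an E-box of the kind MYC binds, stood on either strand in 11 of 39 promoters of this list (28.2%) and in 10.03% of all 10631. They stood in 1 of 28 promoters of the G2 and mitosis list and in 4 of 31 of the S phase list (12.9%). Among genes called higher by at least 8-fold 27 of 477 promoters held them (5.66%), and among those called lower by as much 17 of 239 (7.11%).

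Cytosolic ribosomal protein genes fell as well, 50 of 78 lower and 2 higher (1 higher without naive library 1, naive library 2, media library 1 or media library 2), with a median log2 change of -0.44, and 6 of them by at least 2-fold. Rps29 was at 172, 177 and 247 CPM in naive and 49.6, 52.8 and 53.1 CPM in media libraries (log2 -1.94, adjusted p = 2.61e-06), Rps27 fell by 1.48 and Rpl21 by 1.31. Rplp0 (-0.12), Rpl7a (0.03) and Rpl22 (0.03) were not called. Many of these genes have processed pseudogenes, so their counts are uncertain where reads map to several places. Aminoacyl-tRNA synthetases, which charge tRNA, moved the other way, with 10 of 19 higher and 2 lower (1 lower without naive library 2, media library 2 or media library 3). Gars (1.15) and Aars (1.04) rose by 2-fold or more, and Dars (0.01) and Nars (0.02) were not called. Of 15 amino acid transporter genes 6 rose and 6 fell. Slc43a1, a carrier of large neutral amino acids, rose from 2.74, 1.80 and 1.89 to 30.7, 34.9 and 37.9 CPM (log2 4.00). Slc7a5 rose by 0.32 (adjusted p = 0.00945, 0.0555 without naive library 1 and 0.0586 without naive library 2), while its partner Slc3a2 fell by 0.64.

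Interferon-stimulated genes fell more often than they rose: 20 of 31 fell, 13 of them by at least 2-fold, and 5 rose, with a median log2 change of -0.71. Their summed level overlapped between groups, at 1651 to 1904 CPM in naive and 1527 to 1934 CPM in media libraries. Oasl2, an antiviral protein, was at 16.1, 15.5 and 11.4 CPM in naive and 0.709, 0.499 and 0.893 CPM in media libraries (log2 -4.35, SE 0.230, adjusted p = 4.84e-07). Oas2 (-3.98), Ifit1 (-3.54), Ifit3 (-2.89) and Isg15 (-2.83) fell strongly, and so did Irf7, the factor that amplifies the response (-1.48). Ifi27 (-0.02) was not called. Proteasome genes rose by small steps, 23 of 31 higher and 3 lower (1 lower without media library 2), with a median log2 change of 0.41. Psma1 went from 54.7 ± 1.24 to 114 ± 9.86 CPM (log2 1.06), while the immunoproteasome subunits were split, with Psmb9 higher (0.44) and Psmb10 lower (-0.37).

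Of 15 BCL-2 family genes, which govern survival, 10 rose and 3 fell. Bcl2 itself fell from 261 ± 18.0 to 185 ± 29.4 CPM (log2 -0.50) and Mcl1 by 0.38, while the prosurvival gene Bcl2l2 rose by 2.51, Bcl2a1d by 1.29, and the death-promoting genes Bmf (1.30), Pmaip1 (1.29) and Bak1 (0.90) rose too. Bcl2l11, the BIM gene, was not called (0.13). Bcl2a1d has close copies, so its counts are uncertain.

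In the list of actin, motility and lamin genes 18 of 38 rose, 14 by at least 2-fold, and 7 fell. Stmn1, which destabilises microtubules, was at 4.19, 4.83 and 4.84 CPM in naive and 68.7, 99.5 and 105 CPM in media libraries (log2 4.29), and S100a6 at 10.8, 9.14 and 9.81 and 250.4, 202 and 128 CPM (log2 4.28). Anxa2 (3.50), Lgals1 (3.49) and S100a4 (3.46) rose by more than 8-fold, and the filament gene Vim from 354 ± 21.0 to 1246 ± 109 CPM (log2 1.81). Actb (-0.05), Coro1a (0.04), Rhoa (-0.03) and Lmna (0.43, adjusted p = 0.195) were not called. Myh9, the heavy chain of nonmuscle myosin, fell by 0.43.

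In the DNA methylation list 5 of 10 genes rose and 2 fell, a share of calls near that of all genes. Dnmt1, which copies methylation after replication, rose from 241 ± 12.2 to 693 ± 17.1 CPM (log2 1.52), the histone methyltransferase gene Ezh2 by 3.26 and Hells by 3.31, while Tet1 fell by 1.48. Dnmt3a (0.13) and Tet2 (-0.07) were not called. Malat1, an abundant nuclear RNA, fell from 8181, 8220.4 and 6708 to 1824, 2939.9 and 2948 CPM (log2 -1.59, adjusted p = 8.36e-05), and the snoRNA host gene Snhg12 by 1.78. In that list of 12 noncoding RNAs 5 fell and 1 rose (3 fell without naive library 2 or media library 2, 8 fell without media library 1, and 2 rose without media library 3).

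Markers of other cells that a lymphoid preparation could hold fell more often than they rose, and macrophage genes were highest in naive library 1. Of 12 myeloid and dendritic markers tested 8 fell and 0 rose (1 rose without naive library 1 or media library 3). The 17 genes listed summed to 100 to 259 CPM in naive and 43.2 to 55.7 CPM in media libraries. S100a8, S100a9 and Siglech had 0 counts in media and 5 of the 17 were not tested. Cst3 (32.2 ± 4.86 CPM in media) and Cd68 (6.35 ± 1.55 CPM), neither of them called, held most of the media sum. Csf1r, the receptor that defines macrophages, measured 41.2, 7.96 and 8.20 CPM in naive libraries and 0.0192, 0 and 0.0218 CPM in media libraries (log2 -10.13, or -8.91 without naive library 1). It overlaps Hmgxb3 on the opposite strand. The 10 largest falls by the rule were those of the 3 HSP70 genes, Csf1r and 6 further genes of macrophages: Slc40a1, the iron exporter, and C1qa, C1qb, C1qc, Mrc1 and Sirpa, which had 0 counts in all media libraries. Sirpa, at 23.6, 5.21 and 3.83 CPM in naive libraries, was at least 516-fold lower against a floor of 3 counts over the group, and C1qa, at 12.5, 1.62 and 1.94 CPM, at least 254-fold. Without naive library 1 these bounds were 214-fold and 85.1-fold, an alternative chosen after seeing the data. These 6 genes and Csf1r were each 4 to 7 times higher in naive library 1 than in the next naive library. The adjusted p of the 5 genes at 0 counts ran from 0.0237 (C1qb) to 0.0416 (Mrc1), and none of the 5 was called without media library 1 (adjusted p from 0.0904 to 0.121) or without media library 3 (0.0660 to 0.0945). Slc40a1, at 32.0, 4.93 and 4.37 CPM in naive libraries, was likewise not called without media library 1 (adjusted p = 0.0591), and Mrc1 and Sirpa were not called without naive library 2 (0.0687 and 0.0774).

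Red cell and platelet genes fell in 4 of 6 tested, and the 10 listed summed to 7.14 to 27.1 CPM in naive and 3.38 to 5.71 CPM in media libraries, with Alas2 at 0 counts in media. Hbb-bs, a β-globin gene, was at 4.09, 0.513 and 0.584 CPM in naive and 0.0383, 0.0238 and 0 CPM in media libraries (log2 -6.17, or -4.54 without naive library 1). Of 4 stroma and endothelium genes tested from 13 listed 2 fell. In each fit without media library 1, 2 or 3, 4 of the listed genes were called lower. Those fits filtered genes anew and tested 19213, 19087 and 19171 genes, so the listed genes tested there can differ. The 13 listed genes summed to 146 to 171 CPM in naive and 132 to 150.1 CPM in media libraries. Little of this came from Fn1 (11.6 ± 8.41 CPM in naive, 0.164 ± 0.0283 CPM in media) or Col1a1 (0.642 ± 0.0582 and 0.317 ± 0.0550 CPM). The genes tested and not called in the main fit were Pdgfrb and Pecam1. NK and γδ T cell markers fell in 7 of 9, with sums of 124 to 156 CPM in naive and 92.1 to 99.7 CPM in media libraries. Most of these sums was Eomes (90.6 ± 4.66 CPM in naive, 74.8 ± 3.65 CPM in media), given above among the factors of effector cells. Ncr1, a receptor of NK cells, went from 11.5, 5.24 and 6.14 to 0.0766, 0 and 0.0218 CPM (log2 -7.64, or -9.06 without media library 1), while Trdc was not called (-0.43, adjusted p = 0.0701). Of 11 B cell markers tested 7 fell, among them Cd22 (log2 -4.24). Ighm, the heavy chain gene of IgM, was the exception and rose from 434, 402 and 466 to 983, 909 and 1023 CPM (log2 1.16, adjusted p = 6.17e-06). With Ighm the 12 B cell genes summed to 446 to 502 CPM in naive and 933 to 1054 CPM in media libraries. Of 9 CD4 and regulatory T cell markers 5 rose and 2 fell, and their sum of 92.5 to 121 CPM in naive and 754 to 806 CPM in media libraries includes Il2ra and Ctla4, which activated CD8 cells also express. Cd4 itself was at 8.16, 2.62 and 3.41 CPM in naive and 3.87, 2.83 and 2.05 CPM in media libraries (adjusted p = 0.174), and Foxp3, the regulatory T cell factor, at 4.22, 2.36 and 2.52 CPM in naive and 0.498, 0.904 and 4.31 CPM in media libraries (adjusted p = 0.452). Without naive library 1, 10599 genes were called, 10156 of them among the 11324. The part of other cell types in the other results was not tested.

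The levels of these genes in the collagen gel libraries are given beside them with no test. Gzmb measured 621, 473 and 239 CPM in the bovine collagen libraries and 853, 778 and 1103 CPM in the rat tail collagen libraries. Il2ra stood at 323, 334 and 289 CPM in bovine and 624, 630.1 and 1058 CPM in rat tail collagen, and Prf1 at 9.23, 8.97 and 5.66 and 17.6, 11.1 and 5.82 CPM. In all 6 gel libraries Gzmb and Il2ra lay above, and Prf1 below, every naive library. Hspa1a was at 0.816, 0.606 and 0.742 CPM in bovine and 65.6, 46.5 and 51.2 CPM in rat tail collagen, and Fos at 6.61, 8.16 and 5.78 and 2.57, 1.89 and 1.78 CPM, all below the naive range of both genes. Cdk1 was at 139.7, 132 and 145 CPM in bovine and 68.1, 79.0 and 64.8 CPM in rat tail collagen, above all naive libraries. Ccr2, at 169, 186 and 158 CPM in bovine collagen, was at 3.34, 3.77 and 2.52 CPM in rat tail collagen, below the naive libraries.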

How the data were processed

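Bulk RNA of 3 naive and 3 media libraries was analysed, each made from 150 ng of RNA with ribosomal RNA depletion, per the labels' protocols. The authors deposited a table of raw counts of reads per gene symbol, not normalized. Per the submitters' processing notes the builds were GRCm38 and mm10 and the tools included HISAT2, featureCounts, SAMtools, Picard, MultiQC and FastQC. The sources used here give no version, annotation or strand setting. Of 55291 symbols, 53291 were found in GENCODE M21 (GRCm38), which gave positions and types, and the others held 2.28% of the counts. Promoter sequences were taken from RefSeq (GRCm38.p6).

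The deposited counts of the 6 libraries were filtered with filterByExpr and scaled with TMM in edgeR 4.0.16 (R 4.3.3). They were tested with a robust quasi-likelihood fit, with Benjamini-Hochberg adjustment over 18610 genes and a threshold of 0.05. CPM are on 1 TMM scale over all 12 libraries. No batch is given in the labels. Library totals ran from 37555066 to 53138362 counts. Counts were also simulated from the levels and spread of these libraries (18258 genes), with 67, 63 and 66 genes changed by 4-fold, 2-fold and 1.5-fold. The fit found 85.1%, 65.1% and 47.0% of these, and 9.15% of its calls were genes left unchanged. Far fewer genes were changed there than were called in the real libraries, so these shares do not carry over to the real calls.

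Named genes were, by rule, the 10 largest changes in each direction among called genes with no overlap and a mean of at least 5 CPM in the higher group, the first 3 members of each list, up to 5 called members with the largest change, up to 2 with the smallest, and the 6 most abundant genes in each group. The members and the lists were chosen with earlier results of these data known. Some members are not reported here by name or in the plots; the counts per list include them. Alternatives were RLE size factors, library totals, upper quartile factors, DESeq2 1.42.0, limma-voom (limma 3.58.1), other filters, all 12 libraries in 1 fit, a replicate block, a test against a 2-fold minimum, a non-robust fit, and fits that leave out 1 library in turn. Fits without 1 library were filtered anew, so the list members tested there can differ from those of the main fit.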

Additional observations from a re-analysis of the deposited data

How the results depend on the processing

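Of 359 named genes tested, none changed sign as a call under any alternative, and between 0 and 19 lost their call under each alternative other than the 2-fold minimum, most without naive library 2. When a change of over 2-fold was itself tested, 98 lost it and 3234 genes were called, 1994 higher and 1240 lower. With a filter of 1 CPM in 3 libraries 1472 genes were lower by 2-fold or more. Leaving out 1 library gave 10136 (without naive library 2) to 11310 calls, 5160 to 5827 higher and 4826 to 5508 lower, with 2793 to 2958 higher and 2205 to 2409 lower by 2-fold or more. Calls numbered 11081 with DESeq2, 11390 with limma-voom, 11339 with RLE size factors, 11375 with unscaled library totals, 12302 in 1 fit of all 12 libraries, 12549 without the filter and 11565 with upper quartile factors. Upper quartile factors moved the median log2 change of all genes to -0.14, and 42.7% of calls were then higher, against 52.0%. With the replicate number as a block 10407 genes were called, 10324 of them shared. The labels do not say whether the numbers pair the libraries. Over all genes, same-numbered deviations correlated at -0.043, 0.11 and -0.054, which cannot settle it with 3 libraries per group. At this depth genes near 0 counts in a group have uncertain fold changes.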

Other observations

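The gene families described here were chosen after their values were seen, so their counts are descriptions. Histones are proteins that package DNA. Of 57 histone genes tested whose names begin with H1f, H2ac, H2bc, H3c or H4c, 56 were called higher in media. Each rose by at least 2-fold, and the median log2 change of the 57 was 4.27. Histone genes with other names, such as Cenpa, were not counted. Together the 57 genes summed to 1402 to 1648 CPM in naive and 17934 to 23342 CPM in media libraries. H1f5 rose from 10.2, 9.70 and 9.16 to 719, 653 and 607 CPM (log2 6.09), and H2bc21, the member not called, stood at 9.72 ± 1.50 CPM in naive and 9.70 ± 0.669 CPM in media cells (adjusted p = 0.968). Many histone genes are near-identical, so the split of counts among them is uncertain. The libraries were made from RNA depleted of ribosomal RNA, which keeps transcripts without a poly(A) tail.

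Of the 15 circadian clock genes chosen this way 13 were called lower and 2 higher, with a median log2 change of -1.06. Rora, a clock regulator outside that choice, was not called (log2 0.21, adjusted p = 0.121). Per2 fell from 15.8, 14.2 and 15.7 to 1.34, 1.69 and 1.53 CPM (log2 -3.33), Nr1d1 by 2.65 and Per1 by 1.61, while Npas2 rose by 3.85 and Bhlhe40 by 2.69. The hour of each harvest is not given in the sources used here. Of 11 Notch pathway genes 7 fell and 3 rose: Dtx1, a ligase of the pathway, was at 233, 229.8 and 256 CPM in naive and 1.32, 1.02 and 0.588 CPM in media libraries (log2 -7.92, adjusted p = 4.99e-09), whereas the Notch effector gene Rbpj rose by 1.70. Among 7 Schlafen genes Slfn5 fell from 98.3 ± 12.2 to 2.57 ± 0.651 CPM (log2 -5.25) and Slfn3 rose by 2.51. Among MAP kinase phosphatases Dusp1 fell by 3.49 and Dusp4 rose by 3.41. Rgs2, a brake on G protein signals, fell from 56.2, 72.9 and 63.4 to 2.43, 2.95 and 2.07 CPM (log2 -4.70). Of 77 mitochondrial ribosomal protein genes 42 rose and 7 fell, with a median log2 change of 0.31.

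By annotated type, 35.6% of 12274 protein-coding genes tested were higher in media and 31.8% lower. Of 484 antisense genes 16.3% were higher and 40.1% lower, with a median log2 change of -0.44. More lower than higher calls were also found in other types, such as processed transcripts (20.5% higher, 38.6% lower) and lincRNA genes (23.5% and 33.8%). Processed pseudogenes went the other way (29.15% higher, 17.7% lower). Without a stated strand setting, reads of an antisense gene and its partner cannot be told apart. At a mean under 0.5 CPM in one group and of 5 CPM or more in the other, 55 called genes were near silent in naive cells and 30 near silent in media.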
